A study of Mus musculus with 6 samples.

Results

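Transcripts of 8 genes that serve as surface or matrix markers of fibroblast progenitors, *Pi16*, *Dpp4*, *Cd34*, *Dpt*, *Ly6a*, *Ly6c1*, *Thy1* and *Pdgfra*, were followed in bulk RNA sequencing of cultured bone cells. The 8 were chosen by gene symbol among the 56748 genes of the count table. Cells were released by repeated digestion from long bones of mice aged 7 weeks, a procedure described for C57BL/6 mice, and were cultured for 7 days. The 3 WT cultures were compared with 3 cultures labelled cKO, from mice with floxed *Gsdmd* alleles and a Cre recombinase driven by the DMP1 promoter, which limits deletion to cells that have used that promoter. The methods name C57BL/6J mice as the source of WT cells and give no strain background for the crossed line. They do not describe the WT mice as floxed littermates, so strain background, floxed alleles and Cre cannot be told apart here. All 6 cultures were given 10 ng/mL lipopolysaccharide (LPS) for 3 h followed by 20 µg/mL aluminum hydroxide for 3 h. Unstimulated cultures were not analysed here, so every difference is between the labelled groups under stimulation. Nothing in the labels ties the replicates to separate animals, and the p-values then measure only the spread between these cultures.

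Fibroblasts of many organs include a population near vessels and in the outer connective tissue layers that can renew and give rise to more specialised fibroblasts. In mouse tissues this population is recognised by PI16 and DPP4 together with CD34, LY6A (also called SCA-1) and LY6C1, while PDGFRA and THY1 mark fibroblasts and skeletal stromal cells more widely, and DPT is a matrix protein of the same cells. None of these markers belongs to fibroblasts alone, since vessel lining carries CD34, LY6A and LY6C1, blood progenitors carry CD34 and LY6A, and T cells and neurons carry THY1.

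WT libraries held 45128793, 49734046 and 39590527 gene counts, and the libraries labelled cKO held 41645500, 39566835 and 45161392. Levels are given as counts per 1000000 (CPM) of the library size after scaling by the trimmed mean of M values (TMM). *Gsdmd* itself went against the label, with 609, 699 and 549 counts in WT and 885, 937 and 1045 counts in the libraries labelled cKO. Its count pools all exons, so the floxed exons were not measured on their own, and the genotype is given below as labelled. *Xist*, the RNA of the inactive X chromosome, averaged 1138 CPM in the libraries labelled cKO and 0.0468 CPM in WT, and the Y-linked genes *Ddx3y*, *Eif2s3y*, *Uty* and *Kdm5d* had 0 counts in every library labelled cKO. Sex therefore differed between the groups as the libraries show it, and it cannot be told apart from genotype in any result below. The methods describe mice matched for sex. Whether labels were exchanged was not tested, and an exchange would turn every direction given here. The paper reports more RANKL and IL-6 by Western blot in *Gsdmd*-deficient osteocytes, the direction it gives for their RNA. For CARD9 it reports the same direction, in blots after a shorter stimulation with LPS alone. Those blots do not show which genotype these libraries hold.

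The labelled cell type was also checked. Of the defining osteocyte genes, *Sost* and *Mepe* held at most 2 counts in any library and *Dmp1* at most 6. *Pdpn*, which other stromal cells share, stood at 234 CPM in WT. Of 13 osteocyte genes in the list 6 were tested, and 2 passed as higher (*Capg* and *Hyou1*) and 2 as lower (*Fbln7* and *Pdpn*). The summed level of the list was 992, 1007 and 1086 CPM in WT and 1114, 1115 and 1088 CPM in the libraries labelled cKO. Its most abundant gene, *Ackr3*, stood at 327 and 329 CPM. Macrophage markers differed widely between the groups. All 14 of 16 that had enough counts to be tested were higher in the libraries labelled cKO, their summed level was 1209, 1309 and 1361 CPM in WT against 6477, 6742 and 6794 CPM, and the most abundant, *Lyz2*, went from 986 to 4518 CPM. *Cx3cr1* and *Cd163* from the same list held at most 15 counts. Genes of other cell types differed too. Osteoblast genes split, with 3 of 10 passed as higher and 4 as lower. Their summed level fell from 14110, 13630 and 15460 CPM in WT to 9106, 9215 and 9323 CPM in the libraries labelled cKO. Of 9 chondrocyte genes 8 passed as higher, while the most abundant, *Col2a1*, fell from 1428 to 798 CPM. Of 10 adipocyte lineage genes 5 were tested and 4 passed as higher, only 1 of them with a log2 fold change of at least 1. *Cebpa*, the most abundant, rose from 15.9 to 52.5 CPM, whereas *Plin1*, *Cidec* and *Lep* held at most 3 counts in any library. Fewer cells of a type and less RNA per cell cannot be told apart in bulk RNA, and the part of these differences in the results for the 8 markers was not tested.

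Compared with the WT libraries, those labelled cKO showed no common direction among the 8 markers. Each had enough counts to be among the 17146 genes tested with edgeR's quasi-likelihood test, and a gene passed when its Benjamini-Hochberg adjusted p-value was below 0.05. *Dpt* and *Pdgfra* passed as higher, *Pi16*, *Dpp4*, *Ly6a*, *Ly6c1* and *Thy1* as lower, and *Cd34* did not pass. That is 2 of 8 higher, where 20.1% of all tested genes passed as higher, and 5 of 8 lower, where 19.2% did. With a log2 fold change of at least 1 in size required as well, the rule for a call below, 1 of 8 was called higher (*Dpt*; 6.56% of all tested genes) and 2 of 8 lower (*Pi16* and *Dpp4*; 4.64% of all tested genes). The libraries of the groups did not overlap for 7 of 8 markers, and for 49.2% of all tested genes. The median log2 fold change of the 8 was -0.53, against 0.01 over all tested genes, whose quartiles were -0.22 and 0.27.

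**Figure D1:**
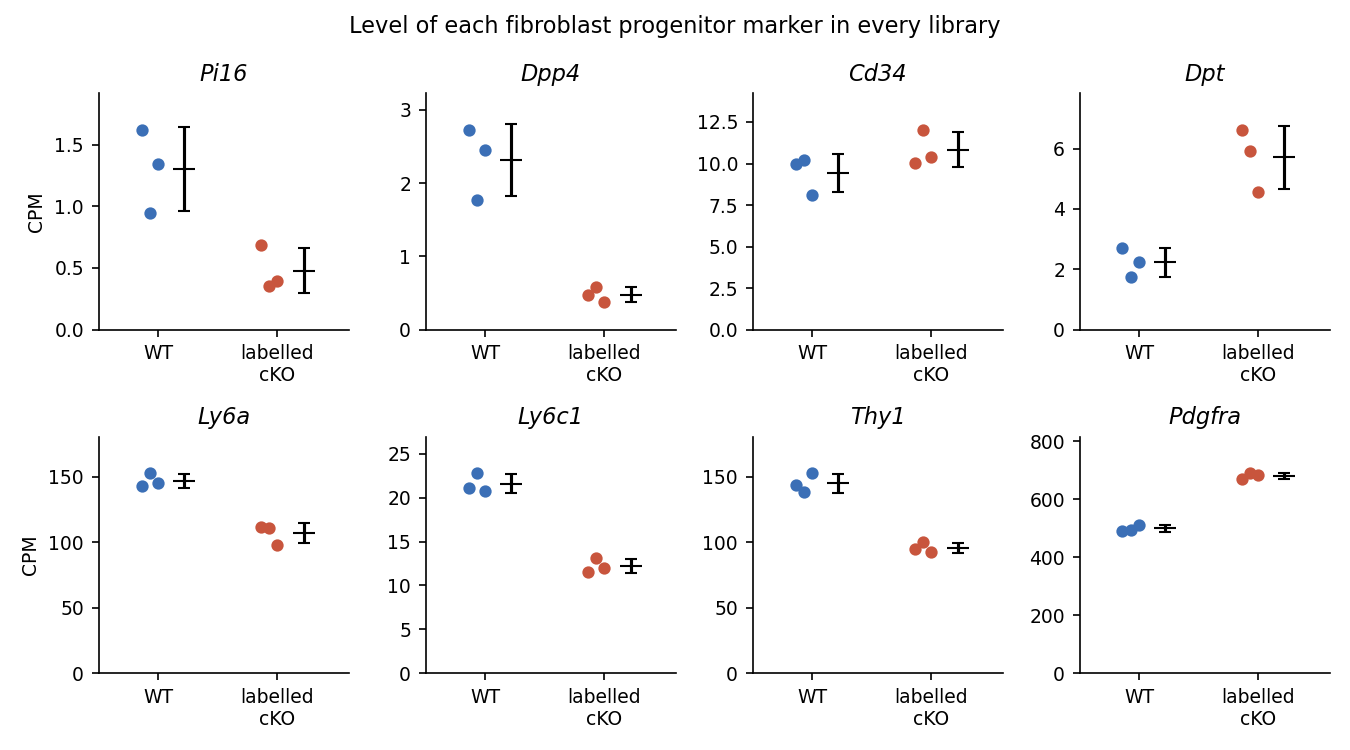
CPM of each of the 8 markers (vertical axes, each from 0) in the 3 WT libraries and the 3 libraries labelled cKO, 1 point per library, with black bars for the mean and SD of a group. The groups are apart for every marker but *Cd34*, and *Dpt* and *Pdgfra* are the markers that lie higher in the libraries labelled cKO.

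*Pi16* encodes a peptidase inhibitor of the CAP domain family and gives its name to the progenitor population. It lies at chr17:29536654-29549567 (GRCm39, plus strand) and was counted 73, 47 and 52 times in WT and 29, 14 and 18 times in the libraries labelled cKO. The lowest WT count was above the highest count labelled cKO, and cKO replicate 1 stood above its group's other libraries. The level was 1.30 ± 0.339 CPM in WT and 0.479 ± 0.183 CPM in the libraries labelled cKO (SD, n = 3 each), a log2 fold change of -1.43 (standard error 0.404; edgeR quasi-likelihood test, Benjamini-Hochberg adjusted p = 0.00879). *Pi16* had the fewest counts of the 8 markers in WT and the widest relative spread in both groups, its coefficient of variation being 26.0% among WT libraries and 38.2% among those labelled cKO. The adjacent genes *BC004004* and *Mtch1*, 3615 and 1479 bases away, fell less, with log2 fold changes of -0.23 and -0.26.

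The other CAP domain genes did not move with *Pi16* as a block. Of 12 in the family, 7 were tested, and 3 passed as higher and 4 as lower, *Pi16* included. *Glipr1* and *Crispld2* had the largest rises, to 23.4 and 50.3 CPM from 6.41 and 19.5 CPM in WT. *Pi15*, which shares the CAP domain with *Pi16*, stood at 72.5 CPM in WT and 60.8 CPM in the libraries labelled cKO. *Crisp2*, with at most 30 counts, had the largest fall, a log2 fold change of -1.60. *Glipr2* was the most abundant of the family, at 102 CPM in WT and 74.0 CPM in the libraries labelled cKO.

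*Dpp4* encodes a membrane protease that removes pairs of residues from the start of chemokines and hormones. At chr2:62160417-62242575 (GRCm39, minus strand) it was counted 123, 88 and 95 times in WT and 20, 23 and 17 times in the libraries labelled cKO. Every library labelled cKO was far below every WT library, the highest at 0.578 CPM against 1.77 CPM in the lowest of WT. The mean fell from 2.32 ± 0.493 CPM to 0.476 ± 0.102 CPM (SD, n = 3 each), with a log2 fold change of -2.28 (standard error 0.326; edgeR quasi-likelihood test, Benjamini-Hochberg adjusted p = 1.88e-05), the largest in size of the 8. The level in the libraries labelled cKO was 0.206 times that in WT, with a 95% interval of 0.132 to 0.320 from the standard error.

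*Fap*, the gene most like *Dpp4* and the next tested gene on its chromosome, 88712 bases away, did not pass, with 32.7 CPM in WT and 30.7 CPM in the libraries labelled cKO and a log2 fold change of -0.09. Of 14 tested genes among the relatives, binding partners and substrates of DPP4, 3 passed as higher and 6 as lower, *Dpp4* included. *Cxcl12*, a chemokine that DPP4 trims, was the most abundant and rose from 334 to 1053 CPM. The substrate *Cxcl10* went from 1.88 to 0.785 CPM, and *Ccl11*, another, was counted 198, 226 and 217 times in WT and 4, 0 and 2 times in the libraries labelled cKO. *Cav1*, whose product binds DPP4, rose from 123 to 247 CPM, and *Dpp6*, a relative without protease activity, fell from 14, 22 and 29 counts to 0, 3 and 0. The ratio of *Pi16* to *Dpp4* per length of gene was 0.530 to 0.589 in the WT libraries and 0.604 to 1.44 in those labelled cKO. With 14 and 23 counts in cKO replicate 2, the lowest of these ratios is close to WT, and whether *Dpp4* fell further than *Pi16* was not tested. With the merged exons of GENCODE M39 the ratio was 0.737 to 0.819 and 0.840 to 2.00.

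*Dpt* encodes dermatopontin, a small matrix protein that binds decorin and helps collagen fibrils assemble. At chr1:164624213-164651835 (GRCm39, plus strand) it was counted 122, 87 and 87 times in WT and 279, 236 and 207 times in the libraries labelled cKO. All libraries labelled cKO were higher than all WT libraries, the reverse of *Pi16* and *Dpp4*. The level rose from 2.235 ± 0.479 CPM to 5.71 ± 1.06 CPM (SD, n = 3 each), a log2 fold change of 1.35 (standard error 0.208; edgeR quasi-likelihood test, Benjamini-Hochberg adjusted p = 4.17e-05). Per length of gene, *Dpt* stood 6.17 to 6.83 times above *Pi16* in the WT libraries and 35.5 to 62.2 times above it in those labelled cKO. The size of this ratio depends on the length taken for *Dpt*, and with the merged exons of GENCODE M39, added after the data had been seen, it was 2.38 to 2.64 and 13.7 to 24.1. *Dcn*, which encodes the decorin that dermatopontin binds, went the other way, from 1769 to 1506 CPM, a log2 fold change of -0.23.

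*Cd34* encodes a heavily glycosylated surface mucin of progenitors and of vessel lining. At chr1:194621127-194643587 (GRCm39, plus strand) it was counted 449, 507 and 315 times in WT and 423, 479 and 472 times in the libraries labelled cKO. Its groups overlapped, since 9.98 and 10.2 CPM in WT replicates 1 and 2 lay beside 10.1 CPM in cKO replicate 1, and WT replicate 3 was the lowest library at 8.12 CPM. The means were 9.44 ± 1.15 and 10.8 ± 1.07 CPM (SD, n = 3 each), with a log2 fold change of 0.20 (standard error 0.121; edgeR quasi-likelihood test, Benjamini-Hochberg adjusted p = 0.229). The 95% interval from the standard error ran from 0.971 to 1.35 times the WT level, so a fall of the size seen for *Pi16* or *Dpp4* lay outside it.

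The nearest relatives of *Cd34* split. *Podxl2* passed as higher, at 9.85 CPM in WT and 13.1 CPM in the libraries labelled cKO, whereas *Podxl* was counted 57, 29 and 49 times in WT and 2, 6 and 0 times in the libraries labelled cKO. *Emcn*, a mucin of vessel lining, was counted 56, 59 and 35 times in WT and 0, 0 and 2 times in the libraries labelled cKO. Among 12 tested markers of vessel lining, which share *Cd34* with progenitors, 3 passed as higher and 7 as lower, with a median log2 fold change of -0.92. Their summed level was 168, 167 and 182 CPM in WT and 119.5, 117 and 113 CPM in the libraries labelled cKO. Most of it came from *Eng*, which stromal cells also carry and which fell from 152 to 87.3 CPM, by more than the sum did. The 3 that passed as higher were *Kdr*, *Vwf* (4.46 to 14.2 CPM) and *Erg* (3.38 to 5.38 CPM). Of the defining ones, *Cdh5* fell from 1.69 to 0.197 CPM and *Pecam1* from 1.42 to 0.687 CPM, *Cldn5* was at 0 throughout, and *Kdr* rose from 1.35 to 5.55 CPM. Of 6 tested markers of blood progenitors, another source of *Cd34*, 3 passed as higher and 2 as lower, with a median log2 fold change of 0.63. *Cd48* rose from 1.67 to 16.1 CPM and *Tal1* from 0.668 to 6.17 CPM, *Mecom* had a log2 fold change of 1.23, and *Hlf* and *Meis1* fell, with log2 fold changes of -1.88 and -0.47. *Flt3* was at 0 in every library, and *Kit*, not tested, had 23, 4 and 8 counts in WT and 0 in each library labelled cKO.

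*Ly6a* and *Ly6c1* belong to a cluster on chromosome 15 that encodes small surface proteins held by a lipid anchor. *Ly6a*, at chr15:74866726-74869880 (GRCm39, minus strand), was counted 6427, 7592 and 5656 times in WT and 4691, 4416 and 4462 times in the libraries labelled cKO. In CPM these were 143, 153 and 146 against 111, 111 and 98.2, and the groups did not overlap. The mean fell from 147 ± 5.25 to 107 ± 7.53 CPM (SD, n = 3 each), a log2 fold change of -0.46 (standard error 0.0530; edgeR quasi-likelihood test, Benjamini-Hochberg adjusted p = 1.46e-06).

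*Ly6c1*, at chr15:74915867-74920679 (GRCm39, minus strand), was counted 951, 1132 and 807 times in WT and 484, 520 and 545 times in the libraries labelled cKO. The WT libraries stood at 20.8 to 22.8 CPM and those labelled cKO at 11.5 to 13.1 CPM, a clear gap. Its mean fell from 21.6 ± 1.08 to 12.2 ± 0.805 CPM (SD, n = 3 each), a log2 fold change of -0.82 (standard error 0.0879; edgeR quasi-likelihood test, Benjamini-Hochberg adjusted p = 5.73e-07). *Ly6c1* lost a larger share of its level than *Ly6a*, and the ratio of *Ly6a* to *Ly6c1* per length of gene was 9.33 to 9.75 among WT libraries, rising to 11.4 to 13.5 among those labelled cKO, and with the merged exons of GENCODE M39 4.77 to 4.99 and 5.82 to 6.90.

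*Ly6c1* has a near-identical neighbour, *Ly6c2*, which monocytes carry. Their coding sequences in GENCODE M39 were 97.7% identical over 393 bases, and 39 of the 939 stretches of 150 bases, the read length, in the reference transcript of *Ly6c1* also occurred in that of *Ly6c2*. Reads from such stretches could have been split or dropped by the counting, and the count of *Ly6c1* is uncertain to that extent. *Ly6c2* was itself listed at 0, 1 and 3 counts in WT and 3, 3 and 0 in the libraries labelled cKO, so that it was at the floor of 3 counts in both groups. *Ly6a* was further from both, at 81.8% identity to *Ly6c1* and with 0 shared stretches. The coding stretch of 90 bases within an exon where *Ly6c1* and *Ly6c2* differ most is printed to show how little separates them, at chr15:74917320-74917409 for *Ly6c1* and chr15:74980461-74980550 for *Ly6c2* (GRCm39, minus strand, 5′ to 3′). Capitals mark the 2 bases that differ.
Ly6c1: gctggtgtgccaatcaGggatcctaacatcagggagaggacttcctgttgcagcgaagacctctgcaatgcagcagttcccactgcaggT
Ly6c2: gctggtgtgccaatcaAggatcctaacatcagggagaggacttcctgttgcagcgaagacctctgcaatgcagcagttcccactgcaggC

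The rest of the family went in both directions. Of 37 genes with this fold, 11 were tested. Without *Ly6a* and *Ly6c1*, 3 of 9 passed as higher and 3 as lower, with a median log2 fold change of -0.11. *Ly6e*, which lies 34974 bases from *Ly6a* and is the nearest tested gene on that side, rose from 102 to 206 CPM, a log2 fold change of 1.01. *Plaur*, the urokinase receptor, rose from 47.0 to 77.0 CPM. *Ly6k* was counted 16, 31 and 22 times in WT and 0 times in each library labelled cKO, at least 7.27-fold lower when 3 counts per library are taken as the floor. *Lypd1* fell from 2.10 to 0.631 CPM and *Lynx1* from 79.5 to 64.7 CPM.

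Both *Ly6a* and *Ly6c1* share a chromosome with *Gsdmd*, at 864296 and 813497 bases from it. Within 1500000 bases on either side of *Gsdmd*, 74 other genes were tested, 14 passed as higher and 14 as lower, and their median log2 fold change was 0.02. On the side of the Ly6 cluster 16 genes were tested, of which 1 passed as higher (*Ly6e*) and 5 as lower, *Ly6a* and *Ly6c1* included. Several Ly6 genes respond to interferon, and of 16 interferon-stimulated genes 10 passed as higher and 1 as lower, with a median log2 fold change of 0.59, where 20.1% and 19.2% of all tested genes did. *Irf1*, the most abundant of them, was the one that fell, from 37.9 to 28.6 CPM. The groups did not overlap for 8 of the 16, and for 49.2% of all tested genes. The part of interferon in the levels of *Ly6a* and *Ly6c1* was not tested.

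**Figure D2:**
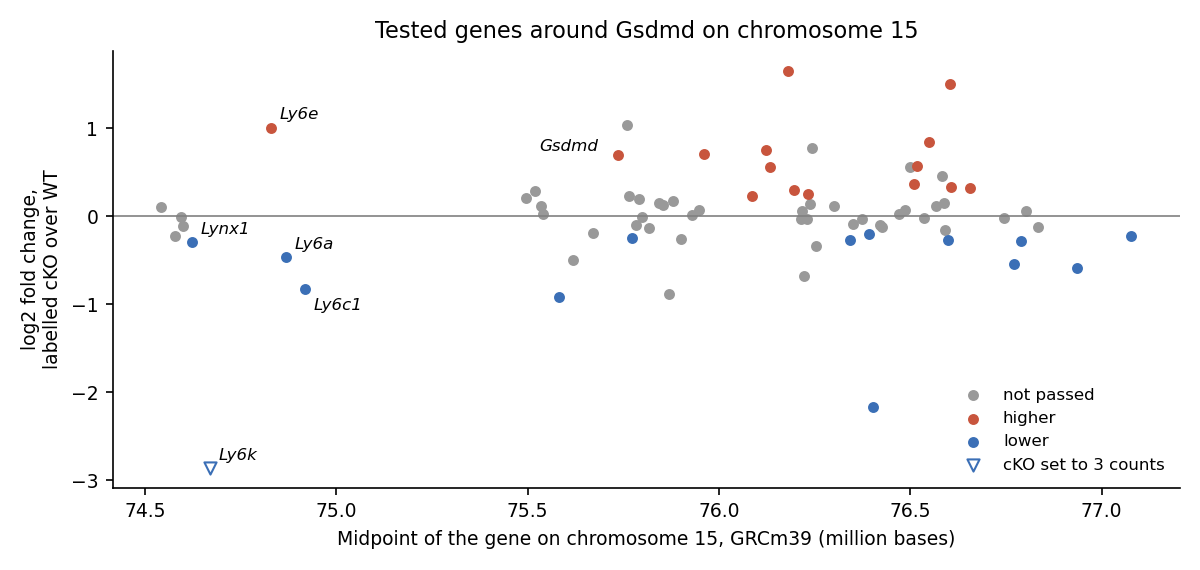
log2 fold change, libraries labelled cKO over WT, of the tested genes within 1500000 bases of *Gsdmd*, by position on chromosome 15 (GRCm39, Mb). *Ly6a* and *Ly6c1* lie below 0 beside *Ly6e* at 1.01, and the open triangle is *Ly6k*, whose libraries labelled cKO were set to 3 counts each.

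*Thy1* encodes CD90, a small lipid-anchored protein that binds integrins on neighbouring cells. At chr9:43954681-43959876 (GRCm39, plus strand) it was counted 6449, 6855 and 5926 times in WT and 3978, 3966 and 4193 times in the libraries labelled cKO. The WT libraries lay at 143, 138 and 153 CPM, and the libraries labelled cKO at 94.5, 99.7 and 92.3 CPM, with no overlap. This was a fall from 145 ± 7.37 to 95.5 ± 3.81 CPM (SD, n = 3 each), a log2 fold change of -0.60 (standard error 0.0498; edgeR quasi-likelihood test, Benjamini-Hochberg adjusted p = 2.32e-08). Of T cell genes, which share *Thy1*, *Cd3d*, *Cd3e*, *Cd3g*, *Cd8a* and *Cd8b1* had 0 counts in all libraries. *Trac* was counted 51, 56 and 35 times in WT and 7, 0 and 0 times in the libraries labelled cKO, a far larger fall than that of *Thy1* (log2 fold change -4.19), whereas *Cd28* rose from 1.33 to 4.40 CPM. The part of T cells in the *Thy1* count was not tested.

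Of the *Thy1* partners, itself included, 10 were tested, 4 passed as higher and 5 as lower. The leukocyte integrins *Itgam*, *Itgax* and *Itgb2*, which bind THY1 and belong to myeloid cells, rose from 10.1, 0.774 and 53.3 CPM to 70.6, 5.57 and 286 CPM. The other integrins of this list passed as lower, as *Thy1* did. *Itga5* fell from 455 to 226 CPM, *Itgb3* from 60.6 to 42.2 CPM, *Itgav* from 459 to 349 CPM and *Itgb1*, the most abundant of them, from 1471 to 1111 CPM. *Sdc4*, which acts with the integrins as a THY1 receptor, rose from 669 to 884 CPM.

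*Pdgfra* encodes the alpha receptor for platelet-derived growth factors and is the most widely used fibroblast marker of the 8. At chr5:75312953-75358876 (GRCm39, plus strand) it was counted 22086, 24557 and 19822 times in WT and 28093, 27426 and 30945 times in the libraries labelled cKO. In CPM, WT stood at 491, 495 and 511 and the libraries labelled cKO at 668, 690 and 681, well apart. The mean rose from 499 ± 10.5 to 680 ± 11.1 CPM (SD, n = 3 each), a log2 fold change of 0.45 (standard error 0.0354; edgeR quasi-likelihood test, Benjamini-Hochberg adjusted p = 1.19e-08). It was also the steadiest marker, its coefficient of variation being 2.11% among WT libraries and 1.64% among those labelled cKO.

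The beta receptor *Pdgfrb* did not pass, at 367 CPM in WT and 353 CPM in the libraries labelled cKO, a log2 fold change of -0.06. Per length of gene, the ratio of *Pdgfra* to *Pdgfrb* was 0.734 to 0.760 in the WT libraries and 1.01 to 1.08 in those labelled cKO, and with the merged exons of GENCODE M39 0.883 to 0.914 and 1.22 to 1.30. By CPM, without regard to length, *Pdgfra* was above *Pdgfrb* in both groups. Among the ligands, *Pdgfa* fell from 55.1 to 45.0 CPM and *Pdgfd* from 12.0 to 1.89 CPM, *Pdgfb* rose from 2.03 to 7.79 CPM, and *Pdgfc* did not pass. *Plat*, a protease that can activate PDGF-C, fell from 112 to 59.0 CPM. Over the 9 tested genes of ligands, receptors and extracellular partners, 2 passed as higher and 3 as lower.

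**Figure D3:**
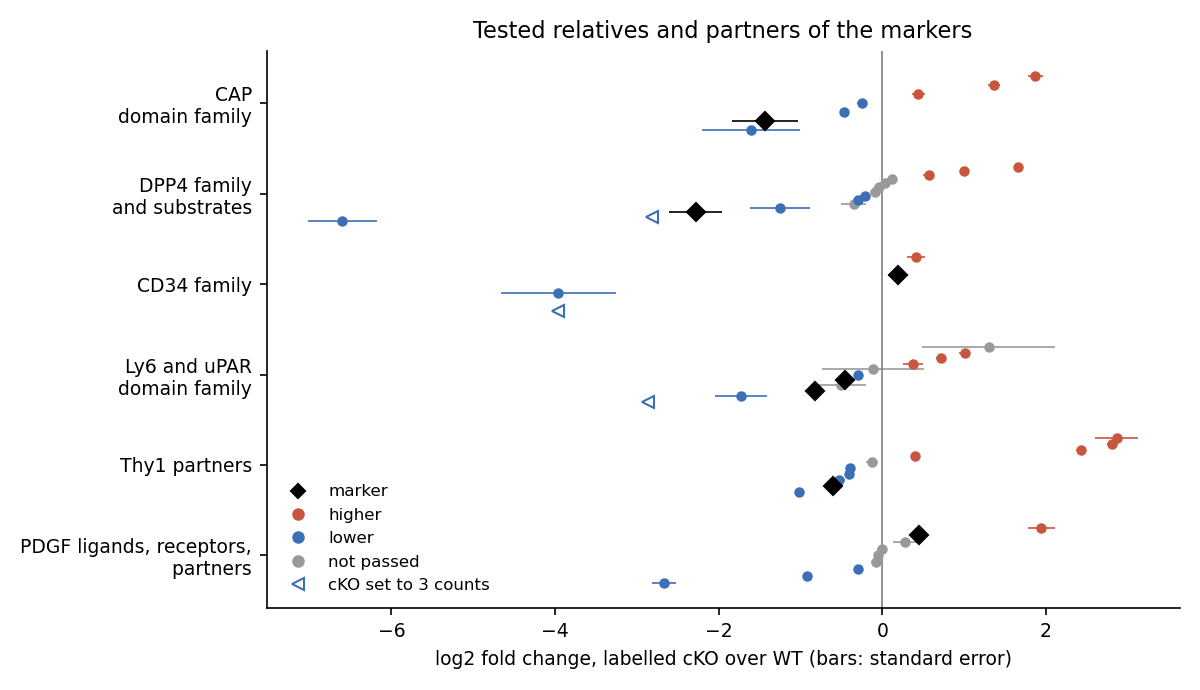
log2 fold change, libraries labelled cKO over WT, with standard error, of the tested relatives and partners of the markers, 1 row per family or partner list. Black diamonds are the markers themselves, and open triangles are genes whose libraries labelled cKO all held 3 counts or fewer and were set to 3. Every row has passed genes on both sides of 0.

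Levels of different genes were compared per kilobase of the deposited gene length. In WT the order was *Ly6a* at 122 ± 4.36, *Pdgfra* at 49.8 ± 1.05, *Thy1* at 48.3 ± 2.46, *Ly6c1* at 12.9 ± 0.645, *Dpt* at 1.30 ± 0.278, *Cd34* at 1.29 ± 0.158, *Dpp4* at 0.367 ± 0.0780 and *Pi16* at 0.205 ± 0.0532 CPM per kilobase (SD, n = 3). *Pdgfra* and *Thy1* did not differ beyond their spread, nor did *Dpt* and *Cd34*. The markers that define the progenitor population most narrowly were thus the scarcest. Among the tested genes *Pi16* was at percentile 10.3 and *Dpp4* at 16.5 of the level per length in WT, against 98.45 for *Ly6a* and 95.5 for *Pdgfra*. The 8 genes alone do not show that cells carrying all of them were present.

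In the libraries labelled cKO the order became *Ly6a* at 88.7 ± 6.25, *Pdgfra* at 67.8 ± 1.11, *Thy1* at 31.9 ± 1.27, *Ly6c1* at 7.27 ± 0.480, *Dpt* at 3.31 ± 0.612, *Cd34* at 1.49 ± 0.146, and *Dpp4* and *Pi16* both at 0.0753 CPM per kilobase (SD 0.0162 and 0.0288, n = 3). *Dpp4* and *Pi16* did not differ there beyond their spread, whereas *Pdgfra* and *Thy1*, and *Dpt* and *Cd34*, had come apart. As a share of the summed level per length of the 8, *Pdgfra* went from 21.1% to 33.8%, *Ly6a* from 51.7% to 44.2% and *Thy1* from 20.45% to 15.9%. This order and these shares rest on the deposited lengths, 1205 bases for *Ly6a* and 1724 for *Dpt*, where the merged exons of GENCODE M39 give 4646 and 4459. With merged exons, a comparison added after the data had been seen, *Ly6a* stood at 31.7 CPM per kilobase in WT, behind *Pdgfra* at 40.5 and overlapping *Thy1* at 32.3, and in the libraries labelled cKO at 23.0, behind *Pdgfra* at 55.2. The shares were then 35.9% and 52.3% for *Pdgfra*, 28.1% and 21.8% for *Ly6a* and 28.6% and 20.2% for *Thy1*. *Pdgfra* and *Thy1*, and *Cd34* at 0.789 and *Dpt* at 0.501, no longer overlapped in WT, and *Dpt* passed from below *Cd34* in WT to above it in the libraries labelled cKO.

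Within each library the abundant markers kept or lost their proportions as pairs. The ratio of *Thy1* to *Pdgfra* per length was 0.934 to 1.00 among WT libraries and 0.454 to 0.484 among those labelled cKO, and that of *Ly6a* to *Pdgfra* was 2.37 to 2.57 and 1.20 to 1.39. By contrast the ratio of *Ly6a* to *Thy1* overlapped between the groups, at 2.37 to 2.75 and 2.65 to 2.93. These ratios do not depend on the scaling of the libraries, but they do depend on the lengths. With merged exons the ratio of *Ly6a* to *Pdgfra* was 0.756 to 0.819 and 0.382 to 0.442, that of *Thy1* to *Pdgfra* 0.767 to 0.821 and 0.372 to 0.397, and that of *Ly6a* to *Thy1* 0.921 to 1.07 and 1.03 to 1.14.

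Other genes of progenitor fibroblasts also went in both directions. Over all tested genes 20.1% passed as higher and 19.2% as lower, 6.56% were called higher and 4.64% lower, and differences between lists were not tested. Of 27 in this list, 6 passed as higher and 15 as lower, 1 was called higher and 6 lower, and the median log2 fold change was -0.26. *Clec3b* and *Gsn* led the rises, from 0.0589 to 2.51 CPM and from 588 to 909 CPM, and *Col15a1* and *Wnt2* the falls, from 37.4 to 1.32 CPM and from 2.30 to 0.126 CPM. The summed level of this list was 5965, 5878 and 6272 CPM in WT and 5675, 5747 and 5732 CPM in the libraries labelled cKO, and *Fstl1* was its most abundant gene. Of 21 general fibroblast genes 4 passed as higher and 13 as lower, with a median of -0.34, *Lum* rising from 51.4 to 144 CPM and *Fbln2* falling by a log2 fold change of -1.69. Of 16 surface markers of skeletal stem and progenitor cells, 3 passed as higher and 9 as lower, with a median of -0.35, *Enpep* having the largest rise and *Ngfr*, at 2, 0 and 0 counts in the libraries labelled cKO, the largest fall. Of 9 pericyte and smooth muscle genes 1 passed as higher and 7 as lower, with a median of -1.37, and *Acta2*, the most abundant, fell from 761 to 376 CPM.

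The pattern over the 6 libraries was compared between genes by Pearson correlation of log2 CPM, as a description that the difference between the groups dominates. Closest to *Pdgfra* were *Nrp2*, *Plekhb2* and *Ahnak*, each with r of at least 0.9996, and 567 protein-coding genes had r above 0.99 with it. Closest to *Thy1* were *Osbpl5*, *Lrp5* and *Il1rap*, with r of at least 0.9992, and 196 genes had r above 0.99.

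Promoters, taken from RefSeq on GRCm38.p6 as 250 bases before to 50 after the start of a gene, were found for 6 of the 8 markers, all but *Ly6a* and *Thy1*, with 2 for *Ly6c1*. They were searched on both strands for TTCNNNGAA (the STAT type), for GAAA followed after 2 free bases by GAAA (the interferon response type), for TGANTCA (the AP-1 type) and for TATAAA. The STAT type occurred in *Dpt* alone (8.30% of all 32851 promoters), the interferon response type in *Dpp4* alone (3.44%), TGANTCA in 0 of the 6 (7.81%) and TATAAA in *Dpt*, *Dpp4* and 1 of the 2 of *Ly6c1* (13.6%). A match is a string of letters and not a shown binding site. The promoters of the 3 called markers are printed because *Dpt* rose where *Dpp4* and *Pi16* fell, with *Dpt* at chr1:164796413-164796712 (plus strand), *Dpp4* at chr2:62412182-62412481 (minus strand) and *Pi16* at chr17:29318632-29318931 (plus strand), all on GRCm38.p6, 5′ to 3′. Capitals mark the matches, of which *Pi16* has none.
Dpt: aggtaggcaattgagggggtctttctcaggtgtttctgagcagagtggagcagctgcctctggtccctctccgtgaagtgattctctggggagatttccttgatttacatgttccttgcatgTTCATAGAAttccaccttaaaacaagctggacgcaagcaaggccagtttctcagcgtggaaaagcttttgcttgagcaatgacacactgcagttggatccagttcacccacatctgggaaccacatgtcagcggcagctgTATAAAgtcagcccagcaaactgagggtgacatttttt
Dpp4: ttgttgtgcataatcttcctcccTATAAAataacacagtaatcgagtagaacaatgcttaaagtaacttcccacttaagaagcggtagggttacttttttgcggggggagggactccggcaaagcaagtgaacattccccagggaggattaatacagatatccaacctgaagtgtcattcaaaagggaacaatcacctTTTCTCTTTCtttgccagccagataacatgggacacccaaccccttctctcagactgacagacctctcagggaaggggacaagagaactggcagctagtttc
Pi16: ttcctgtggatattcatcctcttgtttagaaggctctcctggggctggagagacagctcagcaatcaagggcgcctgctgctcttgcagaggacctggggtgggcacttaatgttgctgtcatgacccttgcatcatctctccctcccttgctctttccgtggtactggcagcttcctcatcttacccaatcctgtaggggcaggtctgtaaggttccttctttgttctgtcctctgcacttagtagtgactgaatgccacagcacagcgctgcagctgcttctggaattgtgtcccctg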

How the data were processed

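Primary bone cells of 6 cultures, 3 WT and 3 labelled cKO, were sequenced. According to the labels and methods, the authors trimmed 150 bp paired-end reads from a directional kit, aligned them to GRCm39 with HISAT2 2.0.5 and counted them per gene with featureCounts (1.55.0-p3 in the submitters' processing notes; the methods name another release and another sequencer). The authors deposited raw counts and a gene length in bases, neither normalized. The strand setting of the counting is not given in the sources used here. 5 of the 8 markers (*Pi16*, *Dpp4*, *Cd34*, *Dpt*, *Pdgfra*) overlap other genes, mostly antisense, which averaged at most 0.498 CPM in either group, and their reads cannot be told apart.

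Counts were filtered with filterByExpr, scaled by TMM and tested with glmQLFit and glmQLFTest of edgeR 4.0.16 in R 4.3.3, with genotype as the only term and Benjamini-Hochberg adjustment over 17146 genes. The biological coefficient of variation was 8.36%. Replicates of a group differed by more than sampling noise, at a chi-square of 4.80 to 13.9 per gene. CPM are counts per 1000000 of the scaled library. Intervals (95%) are 1.96 standard errors either side. Floors cover counting error only. The procedure was tested on simulated counts. Coding sequences were aligned with Biopython 1.88.

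The markers and the lists of relatives, partners and cell type genes were chosen with earlier results of these data known. Named were all markers, genes that check the labels, nearest tested neighbours, the 3 genes most correlated with *Pdgfra* and with *Thy1*, and, picked after their values were seen, some genes of each list, which are not always its leading or most abundant ones. The alternatives were DESeq2 1.42.0, limma-voom (limma 3.58.1), RLE size factors, library size only, other filters, robust estimation, counts halved, a replicate block, each library left out in turn, and TPM for levels per length.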

Additional observations from a re-analysis of the deposited data

How the results depend on the processing

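All 8 markers kept their direction and their side of the threshold under each of the 15 alternative settings, 120 comparisons in all, and the numbers of markers that passed (2 higher, 5 lower) and were called (1 higher, 2 lower) were the same in each. The adjusted p-value of *Pi16* came closest to the threshold, reaching 0.0497, and its log2 fold change lay between -1.79 and -1.26 when single libraries were left out. The corresponding ranges were -2.45 to -2.13 for *Dpp4*, 0.10 to 0.25 for *Cd34*, 1.19 to 1.50 for *Dpt*, -0.50 to -0.40 for *Ly6a*, -0.88 to -0.78 for *Ly6c1*, -0.64 to -0.56 for *Thy1* and 0.42 to 0.46 for *Pdgfra*.

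Over all tested genes, 1124 were called higher and 796 lower, and 870 and 522 when no library could have fewer than 10 counts, a filter that removes genes near 0 in a group. With single libraries left out, 2942 to 3407 genes passed as higher and 2796 to 3375 as lower, and 1027 to 1153 were called higher and 773 to 827 lower. The median log2 fold change over all genes was 0.03 with library size only. With library size only, 14 of the 27 other progenitor genes and 12 of the 21 general fibroblast genes passed as lower, and with DESeq2 3 of the 7 CAP domain genes did. With RLE size factors 9 of the 16 interferon-stimulated genes passed as higher.

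Libraries with the same replicate number did not deviate together from their group means over the tested genes (correlations of -9.23e-05, 0.00116 and -0.0136). Whether cultures with the same number were prepared together cannot be told from these correlations. With replicate number as a replicate block, 2 markers passed as higher and 5 as lower, 1 was called higher and 2 lower, and over all genes 3298 passed as higher and 3098 as lower and 1087 were called higher and 772 lower.

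By TPM the order of the markers was the same in WT, and *Pi16* and *Dpp4* exchanged the last places in the libraries labelled cKO, as they did with merged exon lengths. At 14 to 123 counts per library, *Pi16* and *Dpp4* were measured with few reads, which their standard errors reflect.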
